A study of Mus musculus with 9 samples.

Results

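The genes described here are 10 genes of the MHC class I presentation pathway, H2-K1, H2-D1, H2-T23, B2m, Tap1, Tap2, Tapbp, Tapbpl, Erap1 and Nlrc5. They were taken by symbol from the deposited mm10 transcript table, and the counts of their 30 transcript models were summed to 10 of the 45777 genes in the table. The 9 libraries, 3 per group, came from lungs of male mice of the strain C57BL/6N. EA-BN-H mice had the exposure and the extract: LPS at 0.5 mg/kg together with CSC, a condensate of cigarette smoke, at 12.5 mg/kg into the nose on days 1, 6 and 13, and 200 mg/kg of EA-BN in 2% DMSO by mouth from day 1 to day 14. EA-BN is the ethyl acetate extract of Boehmeria nivea leaves. COPD mice received the same LPS and CSC with the oral vehicle alone, 2% DMSO, and NC mice received PBS into the nose with the same vehicle. Lungs were taken on day 15. LPS with CSC is an instilled model of a smoking-related lung disease, and the whole lung was read as bulk tissue.

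MHC class I molecules show fragments of proteins made inside a cell to CD8 T cells, and their absence is sensed by natural killer cells. The proteasome cuts the fragments, the TAP transporter carries them into the endoplasmic reticulum, aminopeptidases trim them, and editing proteins load them onto a heavy chain that is held by B2m. In most cells of the lung the pathway runs at a basal level and is raised by interferons, through IRF1 and the transactivator NLRC5, and by NF-kappaB.

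The heavy chains H2-K1 (Gene ID 14972, chr17:33996012-34000619), H2-D1 (14964, chr17:35263094-35267497) and H2-T23 (15040, chr17:36029977-36032701) lie on mouse chromosome 17 with Tap1 (21354, chr17:34187556-34197225), Tap2 (21355, chr17:34204479-34216321) and Tapbp (21356, chr17:33919478-33929290). B2m (12010, chr2:122147687-122153082), Tapbpl (213233, chr6:125223927-125231860), Erap1 (80898, chr13:74639573-74693205) and Nlrc5 (434341, chr8:94434335-94527272) lie elsewhere. RefSeq promoter windows on GRCm38.p6, from 250 bases before to 50 bases after the start, were matched for 7 of the 10 genes. Of these, 5 are printed, because they hold the closest pair of genes and all matches to the interferon motif. For H2-K1 an overlapping window, chr17:34000284-34000583, held the same matches and is not printed. Capitals mark matches on either strand to an interferon-stimulated response element core (TTTC, any 2 bases, TTTC), a shorter form of it (TTTCNNTTC), a kappaB site (GGGNNTTCC), a CCAAT box (CCAAT) or the short CRE (TGACG), which do not overlap one another in these windows.
H2-K1 (chr17:34000298-34000597, minus strand): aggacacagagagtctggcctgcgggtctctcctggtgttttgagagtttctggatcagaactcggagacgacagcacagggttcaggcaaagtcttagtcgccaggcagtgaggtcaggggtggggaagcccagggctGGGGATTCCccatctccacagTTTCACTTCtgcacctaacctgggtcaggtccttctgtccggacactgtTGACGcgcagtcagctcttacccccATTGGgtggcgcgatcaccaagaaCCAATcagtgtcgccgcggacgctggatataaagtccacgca
H2-D1 (chr17:35262844-35263143, plus strand): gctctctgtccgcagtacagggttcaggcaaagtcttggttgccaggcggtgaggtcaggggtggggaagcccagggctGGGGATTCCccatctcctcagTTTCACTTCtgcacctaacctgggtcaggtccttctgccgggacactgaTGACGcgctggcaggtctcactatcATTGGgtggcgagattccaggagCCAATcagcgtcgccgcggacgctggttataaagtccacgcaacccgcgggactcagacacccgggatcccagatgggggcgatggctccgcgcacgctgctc
H2-T23 (chr17:36032652-36032951, minus strand): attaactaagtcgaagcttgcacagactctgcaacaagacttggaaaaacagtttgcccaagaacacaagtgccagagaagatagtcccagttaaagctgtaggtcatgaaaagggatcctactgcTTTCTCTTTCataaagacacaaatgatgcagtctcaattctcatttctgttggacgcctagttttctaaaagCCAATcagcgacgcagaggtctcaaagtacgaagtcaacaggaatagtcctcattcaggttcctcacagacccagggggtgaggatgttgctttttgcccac
B2m (chr2:122147437-122147736, plus strand): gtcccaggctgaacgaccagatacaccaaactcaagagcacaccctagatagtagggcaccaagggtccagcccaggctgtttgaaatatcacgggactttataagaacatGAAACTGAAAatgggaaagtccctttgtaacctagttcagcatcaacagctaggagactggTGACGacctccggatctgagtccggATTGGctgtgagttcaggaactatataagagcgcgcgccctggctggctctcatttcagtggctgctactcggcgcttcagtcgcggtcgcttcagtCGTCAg
Erap1 (chr13:74639603-74639902, plus strand): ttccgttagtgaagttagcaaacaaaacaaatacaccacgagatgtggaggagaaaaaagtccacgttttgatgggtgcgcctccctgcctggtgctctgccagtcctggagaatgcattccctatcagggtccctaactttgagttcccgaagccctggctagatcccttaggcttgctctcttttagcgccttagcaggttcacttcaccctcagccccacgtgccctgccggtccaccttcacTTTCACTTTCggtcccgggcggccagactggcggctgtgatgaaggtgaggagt

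The H2-K1 and H2-D1 windows share unbroken runs of 47 and 40 bases, the first with the kappaB match and the second with the shorter interferon match. The interferon core was found in B2m, H2-T23 and Erap1, 3 of the 7 genes, and in 3.44% of the 32851 windows of all genes. These windows belong to 27025 genes, so the shares here are per window, while the 7 are counted per gene. It ended 130 bases before the start of B2m and 115 bases before that of H2-T23, and it lay across the start of Erap1. The shorter form and the kappaB site, both searched after these windows had been read, were found in H2-K1 and H2-D1 alone among the 7, against 7.52% and 5.82% of all windows. A CCAAT box was found in 6 of the 7, all but Erap1, against 37.4% of all windows. The short CRE was found in B2m, H2-D1, H2-K1 and Tap1, against 20.8%. Neither the GAS motif TTCNNNGAA (8.30% of all windows) nor the full CRE TGACGTCA (1.79%) was found in any of the 7.

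The libraries held 25232402 to 42156219 counts, which were scaled to a common library size by TMM and are given below as CPM. The share of 7SL RNA, a small cytoplasmic RNA, was 51.0%, 38.2% and 63.5% in EA-BN-H libraries, 32.5% to 41.0% in COPD libraries and 34.0% to 40.4% in NC libraries, so that EA-BN-H replicate 3 kept the smallest share of nuclear protein-coding counts, 25.9%. All 10 lung identity markers had counts in every library. No 2 libraries agreed within sampling noise. The labels do not say that libraries of a group came from separate mice, so p-values measure the spread between libraries.

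Every exposed library, with or without EA-BN, held more heavy-chain RNA than every NC library. H2-K1, a classical heavy chain that presents peptides to CD8 T cells, had 732, 1309 and 742 CPM in EA-BN-H libraries, 1350, 838 and 1556 CPM in COPD libraries, and 135, 222 and 239 CPM in NC libraries (replicates 1 to 3 in each). H2-D1, the second classical chain of this strain, had 826, 1329 and 640 CPM in EA-BN-H libraries, 1363, 826 and 1424 CPM in COPD libraries, and 145, 295 and 239 CPM in NC libraries. Both genes were lowest in NC replicate 1 and highest in COPD replicate 3, and the lowest exposed library was 3.07 times the highest NC library for H2-K1 and 2.17 times for H2-D1. H2-T23 encodes Qa-1, a nonclassical chain whose peptide is read by the NKG2A receptor of natural killer cells. It had 125, 363 and 123 CPM in EA-BN-H libraries, 248, 160 and 302 CPM in COPD libraries, and 19.4, 42.6 and 40.2 CPM in NC libraries. Its groups of exposed and NC libraries did not overlap either. B2m, the light chain of all these molecules, had 249, 907 and 238 CPM in EA-BN-H libraries, 625, 165 and 671 CPM in COPD libraries, and 76.4, 57.6 and 64.0 CPM in NC libraries. Its 6 exposed libraries spanned 5.50-fold, the widest span of the 10 genes, with EA-BN-H replicate 2 highest and COPD replicate 2 lowest. In bulk lung, more cells that express a gene and more RNA per cell cannot be told apart, and this holds for all values below.

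The transporter and the peptide editors were likewise higher in every exposed library than in every NC library. Tap1, one of the subunits of the peptide transporter, had 124, 397 and 136 CPM in EA-BN-H libraries, 230, 154 and 265 CPM in COPD libraries, and 14.6, 34.1 and 33.9 CPM in NC libraries. Its partner Tap2 had 126, 240 and 118 CPM in EA-BN-H libraries, 166, 103 and 158 CPM in COPD libraries, and 26.1, 47.4 and 45.1 CPM in NC libraries. For both subunits EA-BN-H replicate 2 was the highest library and NC replicate 1 the lowest. Tapbp encodes tapasin, which bridges the transporter and the heavy chain while peptide is loaded. It had 249, 513 and 201 CPM in EA-BN-H libraries, 427, 252 and 405 CPM in COPD libraries, and 79.3, 139 and 94.9 CPM in NC libraries, the narrowest gap of the 9 genes that did not overlap, with the lowest exposed library at 1.44 times the highest NC library. Tapbpl encodes TAPBPR, a tapasin relative that edits peptides outside the loading complex. It had 17.5, 53.7 and 12.6 CPM in EA-BN-H libraries, 31.5, 21.1 and 29.5 CPM in COPD libraries, and 6.01, 8.24 and 6.08 CPM in NC libraries.

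Nlrc5, the transactivator that acts on class I promoters, stood apart from NC in every exposed library, whereas Erap1, the aminopeptidase that trims peptides in the endoplasmic reticulum, did not. Nlrc5 had 136, 430 and 190 CPM in EA-BN-H libraries, 193, 221 and 244 CPM in COPD libraries, and 12.8, 36.2 and 40.9 CPM in NC libraries. Erap1 had 33.7, 99.7 and 31.1 CPM in EA-BN-H libraries, 77.0, 35.9 and 76.7 CPM in COPD libraries, and 42.7, 46.5 and 39.9 CPM in NC libraries. Its 3 highest libraries were EA-BN-H replicate 2 and COPD replicates 1 and 3, and its other 3 exposed libraries lay below all NC libraries.

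**Figure D1:**
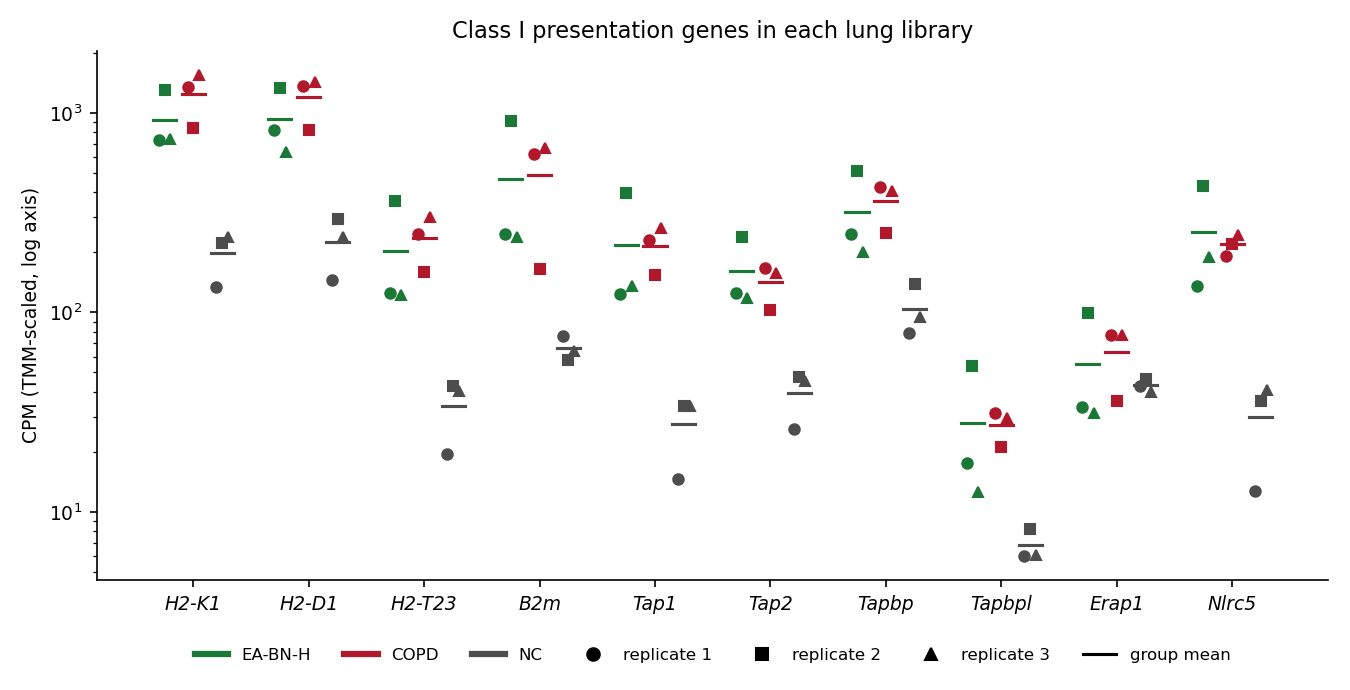
TMM-scaled CPM on a log axis for the 10 class I genes, one point per library by replicate, with EA-BN-H, COPD and NC from left to right and a bar at each group mean. For 9 genes all 6 exposed libraries sit above the 3 NC libraries, while Erap1 runs from 31.1 to 99.7 CPM in exposed libraries around an NC range of 39.9 to 46.5 CPM.

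COPD lungs were compared with NC lungs to ask what LPS with CSC changed. All 10 log2 fold changes were above 0, with a median of 2.53 against -0.02 over the 18716 genes tested. With edgeR's quasi-likelihood test and Benjamini-Hochberg adjustment over all genes, 6 of the 10 genes were higher in COPD at an adjusted p under 0.05, a call made for 1.61% of all genes in that direction. Tap1 rose 7.87-fold (log2 2.98 ± 0.51 SE, adjusted p = 0.0297) and Nlrc5 7.33-fold (2.87 ± 0.51, adjusted p = 0.0317). Among the heavy chains H2-T23 rose 6.94-fold (2.79 ± 0.50, adjusted p = 0.0317), H2-K1 6.29-fold (2.65 ± 0.37, adjusted p = 0.0220) and H2-D1 5.33-fold (2.41 ± 0.38, adjusted p = 0.0246). Tap2 rose 3.61-fold (1.85 ± 0.35, adjusted p = 0.0350). B2m did not pass the test although its fold change was as large, 7.38-fold (2.88 ± 0.63, adjusted p = 0.0523). Tapbp was at 3.46-fold (1.79 ± 0.39, adjusted p = 0.0522) and Tapbpl at 4.04-fold (2.01 ± 0.48, adjusted p = 0.0661), both short of the threshold. Erap1 was at 1.47-fold, with a 95% interval of 0.742 to 2.91 (adjusted p = 0.611). The COPD and NC libraries did not overlap for 9 of the 10 genes, all higher in COPD, which was the case for 14.3% of all genes. The same 9 genes met a looser rule in the edgeR fit, an unadjusted p under 0.05 with a log2 fold change of at least 1, against 7.20% of all genes. Which genes passed depended on the libraries: without NC replicate 1, 2 or 3, or without COPD replicate 1 or 3, 0 of the 10 genes were called, and the smallest adjusted p among them was then 0.0630 to 0.0969. In these settings 0 or 1 gene of the whole table was called, so the loss was not particular to the 10 genes. Without EA-BN-H replicate 2 or 3, which enter through the shared estimate of spread, 9 of the 10 were called, beside 993 and 445 genes of the whole table.

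EA-BN-H lungs were compared with COPD lungs to ask what the extract changed in exposed mice. None of the 10 genes was called by edgeR, and 0% of all genes were. The 10 log2 fold changes ran from -0.43 for H2-K1 to 0.20 for Nlrc5, 4 of them above 0, with a median of -0.12 against 0.00 over all genes, and every adjusted p was 1. At an unadjusted p under 0.05 edgeR found 304 of the 18716 genes and none of the 10, and DESeq2 called 3 genes at its adjusted p, none of the 10. The looser rule was met by 0 of the 10 and by 0.844% of all genes, and libraries of the 2 groups did not overlap for 0 of the 10 and for 6.33% of all genes. H2-K1 was at 0.743 times COPD, with a 95% interval of 0.436 to 1.27, and H2-D1 at 0.774 times, with an interval of 0.442 to 1.35. The intervals of Tap1 (0.487 to 2.11) and Nlrc5 (0.555 to 2.39) were wider, and that of B2m ran from 0.386 to 2.36. All 10 intervals included 1, so neither a fall nor a rise within these bounds can be told from no change. The direction of the median rested on single libraries, while H2-K1 and H2-D1 stayed below 0 whichever library was left out. Without EA-BN-H replicate 2, the highest library for 8 of the 10 genes, the median of the 10 was -0.75, and without EA-BN-H replicate 3 it was 0.17. Scaling mattered too, since dividing by library totals moved the median over all genes to -0.41 and that of the 10 genes to -0.40.

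**Figure D2:**
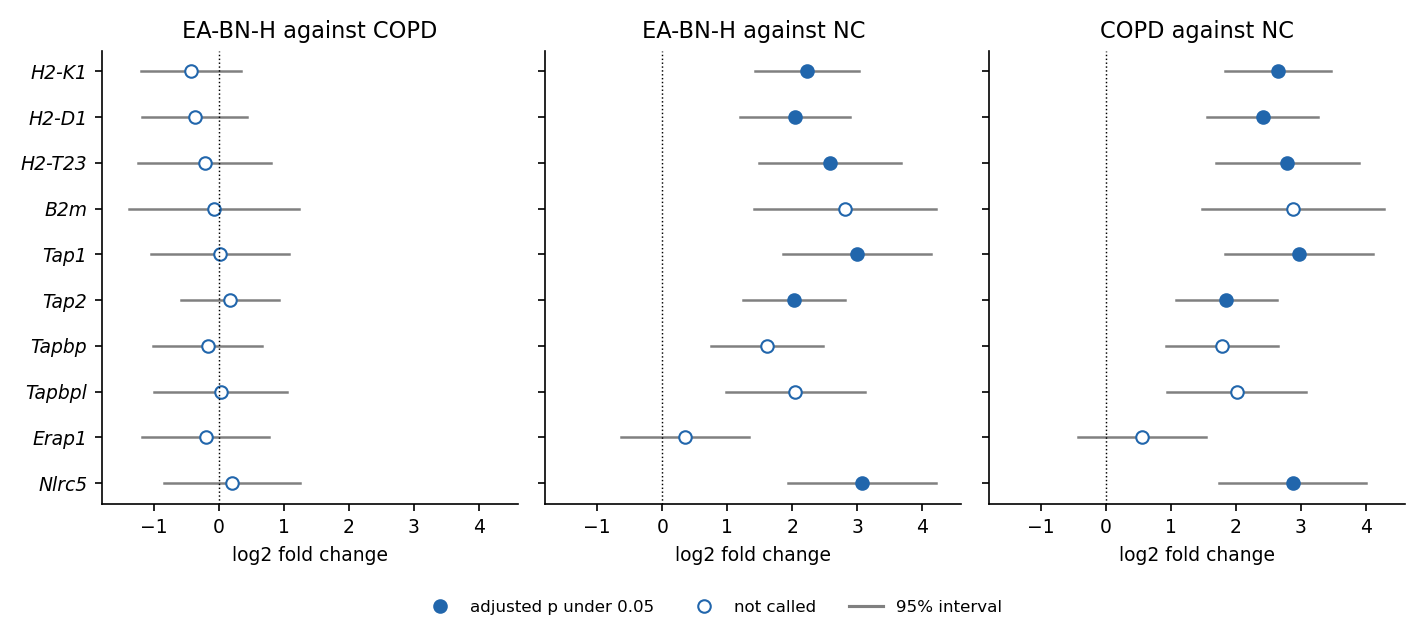
Log2 fold changes of the 10 class I genes with 95% intervals for EA-BN-H against COPD, EA-BN-H against NC and COPD against NC, with filled points at an adjusted p under 0.05. The values against COPD lie between -0.43 and 0.20 with intervals that include 0, and the values against NC lie between 0.35 and 3.08.

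EA-BN-H lungs were also set against NC lungs, which serve as the reference of the COPD comparison as well, so that these results share their controls. The median log2 fold change of the 10 genes was 2.14, against 0.00 over all genes. The calls again numbered 6 of the 10, all higher in EA-BN-H, against 1.17% of all genes. Nlrc5 rose 8.44-fold (log2 3.08 ± 0.51 SE, edgeR adjusted p = 0.0372), Tap1 7.97-fold (2.99 ± 0.51, adjusted p = 0.0376) and H2-T23 5.97-fold (2.58 ± 0.49, adjusted p = 0.0446). H2-K1 rose 4.67-fold (2.22 ± 0.36, adjusted p = 0.0358), H2-D1 4.12-fold (2.04 ± 0.38, adjusted p = 0.0420) and Tap2 4.09-fold (2.03 ± 0.35, adjusted p = 0.0376). B2m at 7.04-fold, Tapbpl at 4.13-fold and Tapbp at 3.07-fold had adjusted p of 0.0612, 0.0707 and 0.0750, and Erap1 was at 1.28-fold with an adjusted p of 0.813. Libraries did not overlap for 9 of the 10 genes, against 11.3% of all genes, and the looser rule was met by the same 9, against 6.71%. None of the 10 was called without NC replicate 1, 2 or 3 or COPD replicate 1 or 3, where 0 or 1 gene of the whole table was, and 3 were called without EA-BN-H replicate 2, beside 105 genes of the whole table. With library totals in place of TMM none of the 10 and 98 genes of the whole table were called, the smallest adjusted p of the 10 being 0.0520. With only these 2 groups in the fit none of the 10 and 0 genes in all were called, at 0.107.

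With the 6 exposed libraries pooled, as the mean of the EA-BN-H and COPD groups against NC, 9 of the 10 genes rose at an adjusted p between 0.0172 and 0.0390, a call made for 2.79% of all genes in that direction. B2m rose 7.21-fold (log2 2.85 ± 0.59 SE, edgeR adjusted p = 0.0344), Tapbp 3.26-fold (1.70 ± 0.36, adjusted p = 0.0349) and Tapbpl 4.08-fold (2.03 ± 0.44, adjusted p = 0.0390). Erap1 stayed outside, at 1.37-fold (0.45 ± 0.39, adjusted p = 0.609). All 6 exposed libraries were above all 3 NC libraries for these 9 genes, which was the case for 7.90% of all genes, and the looser rule was met by 9, against 7.21%. The count of calls fell to 2 without NC replicate 1, to 4 without COPD replicate 3 and to 0 without COPD replicate 1 or without either of NC replicates 2 and 3, while the median log2 fold change of the 10 genes stayed between 2.11 and 2.49 over these omissions of 1 library. Over all genes tested, 87 were called without NC replicate 1, 110 without COPD replicate 3 and 0 to 5 in the other 3 cases.

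**Figure D3:**
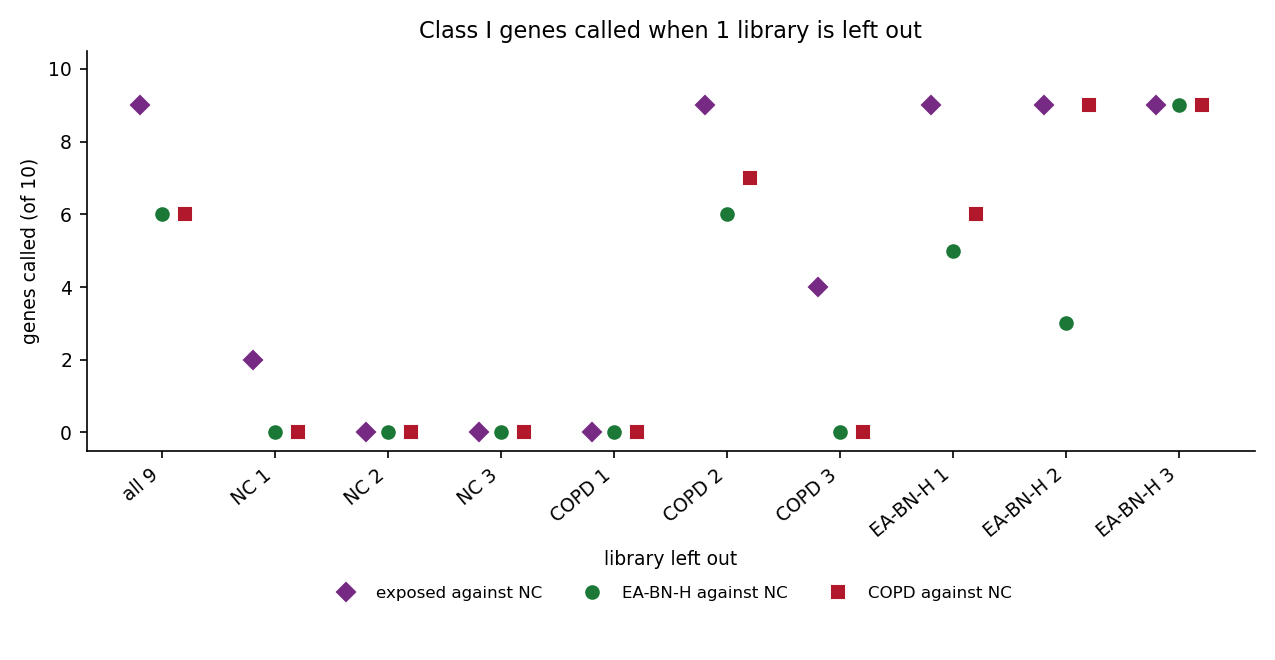
Number of the 10 class I genes called by edgeR at an adjusted p under 0.05 with all 9 libraries and with each library left out, for exposed against NC, EA-BN-H against NC and COPD against NC. The counts are 9, 6 and 6 with all libraries and 0 in each comparison when COPD replicate 1, NC replicate 2 or NC replicate 3 was left out.

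Levels per length, as the deposited TPM, gave the order of the 10 genes within a group. On TPM the median log2 fold change over all genes was -0.70 in EA-BN-H against COPD and -0.59 in EA-BN-H against NC. The TPM below are therefore not to be compared between groups. In EA-BN-H lungs B2m had 295 ± 341 TPM, H2-K1 270 ± 208 and H2-D1 267 ± 209 (SD, n = 3 each here and below). In COPD lungs H2-K1 had 543 ± 231, H2-D1 502 ± 188 and B2m 415 ± 269 TPM, and in NC lungs H2-D1 had 87.3 ± 25.5, H2-K1 78.9 ± 20.3 and B2m 52.4 ± 10.2 TPM. These 3 genes led in all groups, and their order among themselves was within the spread of the libraries. H2-T23 followed with 81.4 ± 85.0 TPM in EA-BN-H lungs and 131 ± 57.8 TPM in COPD lungs, and at 17.3 ± 5.97 TPM in NC lungs, where Tapbp came before it at 25.5 ± 6.23 TPM. Tapbpl had the lowest mean in NC lungs, 2.17 ± 0.275 TPM, close to Nlrc5 at 2.69 ± 1.35 TPM. In COPD lungs the lowest means were those of Erap1 (8.74 ± 3.94 TPM) and Tapbpl (9.39 ± 2.55 TPM).

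Tap1 and Tap2 form a dimer, and the balance of their RNAs differed between exposed and NC lungs. The ratio of Tap1 to Tap2 TPM was 0.839, 1.40 and 0.975 in EA-BN-H libraries, 1.17, 1.26 and 1.42 in COPD libraries, and 0.471, 0.616 and 0.633 in NC libraries. All exposed libraries were thus above all NC libraries, and the ratio within a library does not depend on how the library was scaled. This pair was chosen after its values had been seen, so the ratio is given without a test. The ratio of B2m to the sum of H2-K1 and H2-D1 was 0.317, 0.685 and 0.341 in EA-BN-H libraries, 0.457, 0.198 and 0.447 in COPD libraries, and 0.547, 0.222 and 0.269 in NC libraries. Here the groups overlapped. B2m is the shortest of the 10 genes at 858 bases, and the share of nuclear protein-coding counts in genes under 1000 bases was 5.83% to 6.57% in EA-BN-H libraries, 6.88%, 3.89% and 6.05% in COPD libraries, and 8.88%, 6.18% and 5.02% in NC libraries. The library with the lowest such share, COPD replicate 2, also had the lowest ratio, and the part of this share in the B2m values was not tested.

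**Figure D4:**
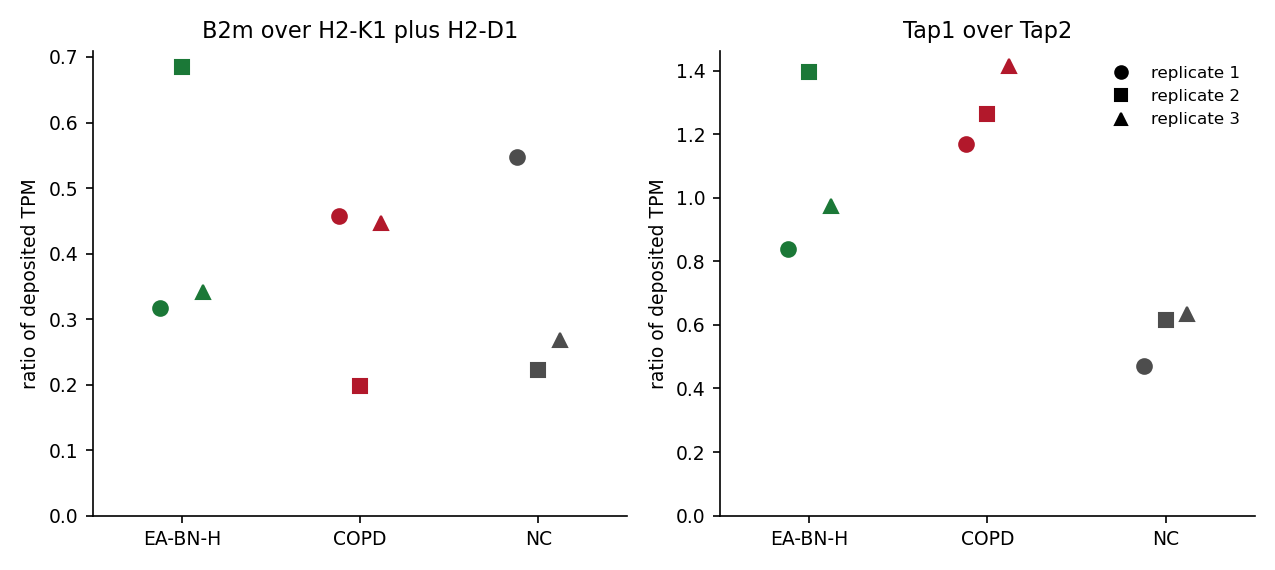
Ratio of deposited TPM within each library for B2m over H2-K1 plus H2-D1 and for Tap1 over Tap2, with EA-BN-H, COPD and NC from left to right. The Tap1 to Tap2 ratio is 0.839 to 1.42 in exposed libraries and 0.471 to 0.633 in NC libraries, whereas the B2m ratio overlaps between groups.

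The 30 transcript models of the 10 genes carried the counts unevenly. H2-D1, H2-T23, B2m and Tap2 had 1 model each. Among the 11 models of H2-K1 the leading one held 80.3% of the counts in EA-BN-H, 81.3% in COPD and 81.2% in NC, so its share was alike in all groups. For Tap1 the longer of 2 models held 92.2% in EA-BN-H, 94.2% in COPD and 78.9% in NC, where 565 counts of the shorter model came from replicate 2. Tapbp divided its counts almost evenly between 2 models that differ by 3 bases in length. Nlrc5 had 6 models, and in NC libraries most counts fell on a different model in each replicate, 543 counts on 1 model in replicate 1, 993 on another in replicate 2 and 819 on another in replicate 3. A model that held 29.0% of the Nlrc5 counts in EA-BN-H and 29.7% in COPD had 0 counts in all NC libraries. Since the assignment of reads to such models was unstable between replicates, no comparison of single models is drawn from it.

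Class I heavy chains resemble one another, so reads of H2-K1, H2-D1 and H2-T23 may have been divided among them and the other H2 class I genes, and the value of any single one is uncertain to that extent. When the counts of all H2 class I heavy chains were summed in each library, the sum rose 2.49 on the log2 scale in COPD (edgeR adjusted p = 0.0277) and 2.12 in EA-BN-H against NC (adjusted p = 0.0439), and it was at -0.38 in EA-BN-H against COPD (adjusted p = 1). Of the 25 other heavy-chain genes listed, 20 had a row and 14 had enough counts to be tested. In exposed against NC 7 of the 14 were called higher and none lower, with a median log2 fold change of 2.22 over the 14. The lowest values were those of H2-M5 at -0.57, H2-Q2 at 0.35 and H2-K2 at 0.90, none of them called. Over all genes 2.79% were called higher and the median was -0.02, and the lists that follow are to be read against these values. In single groups against NC 2 of the 14 were called higher in EA-BN-H and 6 in COPD, where 1.17% and 1.61% of all genes were. In each of these comparisons 13 of the 14 log2 fold changes were above 0, with medians of 1.99 in EA-BN-H and 2.39 in COPD. H2-T22 and H2-T10, chains that bind no peptide and are read by gamma delta T cells, rose 2.41 ± 0.33 and 2.33 ± 0.33 on the log2 scale (SE, edgeR adjusted p = 0.0172 for both). H2-T22 averaged 105 ± 53.5 CPM in EA-BN-H, 117 ± 26.5 CPM in COPD and 20.9 ± 3.79 CPM in NC. H2-Q4 averaged 230 ± 92.1 CPM in EA-BN-H, 284 ± 35.7 CPM in COPD and 54.5 ± 31.2 CPM in NC and rose 2.23 ± 0.44 (adjusted p = 0.0295). H2-Q5 rose 2.38 ± 0.46 (adjusted p = 0.0282), and H2-Q1, H2-Q6 and H2-Q7 were the other calls.

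The rest of the pathway was read from lists of genes by role. Of the 6 immunoproteasome genes, whose inducible subunits replace those of the constitutive core, 4 rose in exposed against NC and none fell, with a median of 1.73. Only Psmb8 was called in EA-BN-H and in COPD against NC. Psmb8 averaged 80.4 ± 62.9 CPM in EA-BN-H, 94.0 ± 33.4 CPM in COPD and 14.3 ± 2.28 CPM in NC and rose 2.61 ± 0.47 (edgeR adjusted p = 0.0240). Psmb9, the neighbour of Tap1 on chromosome 17, rose 2.42 ± 0.50 (adjusted p = 0.0327), Psmb10 rose 1.88 ± 0.41 (adjusted p = 0.0377), and Psme2, an activator subunit, rose 1.58 ± 0.37 (adjusted p = 0.0498). None of the 16 constitutive proteasome genes was called in any of the 4 comparisons, and their median in exposed against NC was 0.15. The leading genes of that list by p were Psmb6 at 0.36 ± 0.31, Psma2 at 0.39 ± 0.37, Psme4 at -0.17 ± 0.19 and Psma4 at 0.33 ± 0.39.

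The folding and loading chaperones of the endoplasmic reticulum gave 0 calls of 10, with a median of 0.19. Calr, the calreticulin of the loading complex, averaged 182 ± 104 CPM in EA-BN-H, 194 ± 85.2 CPM in COPD and 118 ± 20.6 CPM in NC, a log2 fold change of 0.67 ± 0.38 in exposed against NC (adjusted p = 0.401). Uggt1, which checks the folding of glycoproteins, was at 0.41 ± 0.23, Sec61a1 at 0.37 ± 0.23 and Ssr1 at -0.38 ± 0.23. Other peptidases that trim or destroy class I peptides gave 0 calls of 7, with Lap3 at 0.82 ± 0.36, Ide at -0.41 ± 0.26, Blmh at -0.15 ± 0.21 and Thop1 at -0.10 ± 0.26. Like Erap1, this group was therefore without a call. The class I-like genes outside the H2 complex gave 0 calls of 9, with a median of -0.05. Within it Procr, a receptor of protein C, was at 2.07 ± 0.56 (adjusted p = 0.0750), Cd1d1, which presents lipids, was at 1.82 ± 0.53 (adjusted p = 0.0975), Azgp1 was at -0.72 ± 0.33 and Ulbp1 was at 0.93 ± 0.63.

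Regulators of the pathway gave 6 calls of 22 in exposed against NC, all higher, with a median of 0.45, and 3 calls each in EA-BN-H and in COPD against NC. Ciita, the class II counterpart of Nlrc5, rose 2.33 ± 0.43 (edgeR adjusted p = 0.0247), Stat2 rose 2.01 ± 0.33 (adjusted p = 0.0214) and Irf1 rose 2.27 ± 0.47 (adjusted p = 0.0351). Irf8 and Irf9 were also called. Ifng, looked at after its values had been seen, had 0, 8.86 and 1.66 CPM in EA-BN-H libraries, 3.05, 0.847 and 2.32 CPM in COPD libraries and no counts in the 3 NC libraries. It was not called in exposed against NC (edgeR adjusted p = 0.0760), and its highest value was in EA-BN-H replicate 2. A list of receptors and cytotoxic genes gave 2 calls of 14, the inhibitory receptors Lilrb4a (3.14 ± 0.66, adjusted p = 0.0353) and Pirb (2.52 ± 0.53, adjusted p = 0.0357), with a median of 1.90 and 0 calls in either group alone against NC. Pira2 was at 2.39 ± 0.64 (adjusted p = 0.0717) and Gzma, a granule protease of cytotoxic cells, at 1.75 ± 0.58 (adjusted p = 0.139). No gene of any of these lists was called in EA-BN-H against COPD.

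**Figure D5:**
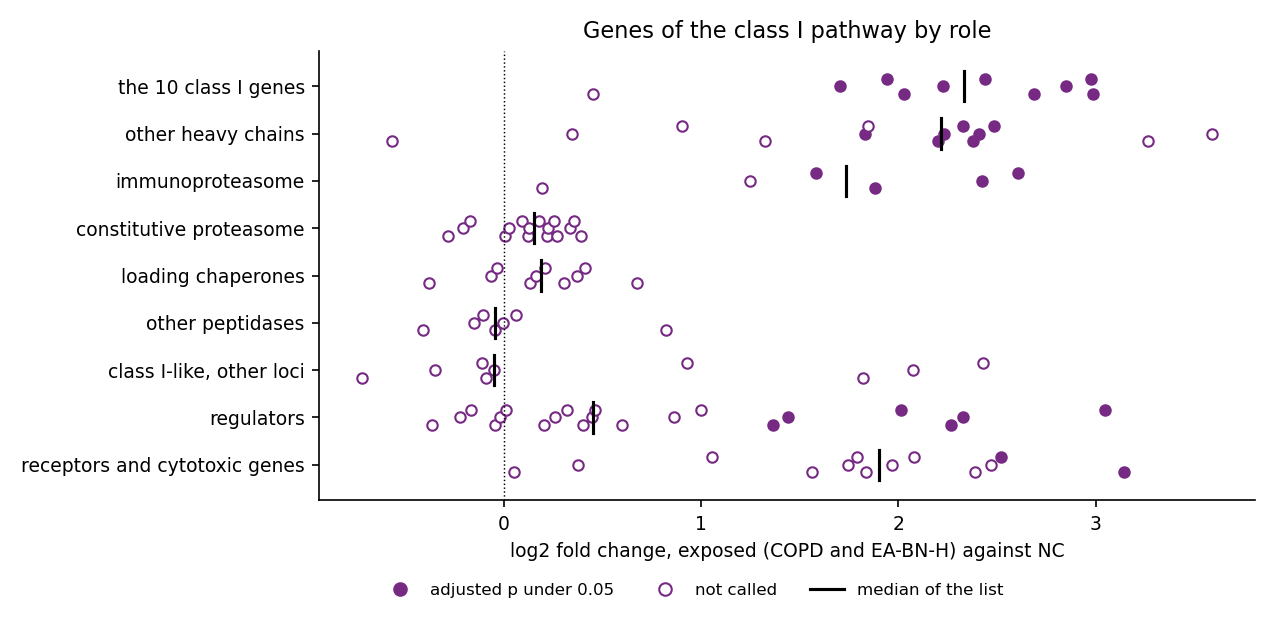
Log2 fold change in exposed against NC lungs for the 10 class I genes and for 8 lists of pathway genes, one point per gene tested, filled at an adjusted p under 0.05, with a bar at each median. Ifng and Klra1, with no counts in NC, are not drawn but enter the medians of their lists. The medians are 2.33 for the 10 genes, 2.22 for other heavy chains, 1.73 for the immunoproteasome and 0.15 for the constitutive proteasome.

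By the likeness of their profile over the 9 libraries, 6 genes came closest to the mean log2 CPM of the 10 among 13139 genes ranked, and the points share the difference between exposed and NC libraries. Pearson's r was 0.998 for Ifit3, 0.996 for Vav1, 0.995 for Bst2 and 0.994 for Lrg1, Csf2rb and Serpina3i, all given as descriptions. Ifit3, an interferon-induced gene, averaged 88.9 ± 63.1 CPM in EA-BN-H, 91.7 ± 32.4 CPM in COPD and 12.4 ± 3.86 CPM in NC. Vav1, a signalling protein of blood cells, averaged 63.0 ± 46.7 CPM in EA-BN-H, 66.6 ± 23.6 CPM in COPD and 10.9 ± 3.12 CPM in NC.

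The summed markers of all leukocytes, of macrophages and monocytes, of dendritic cells and of neutrophils were higher in every exposed library than in every NC library, and those of the other cell types overlapped. Single markers were less uniform. Every exposed library lay above every NC library for 6 of the 7 macrophage and monocyte markers and 3 of the 5 leukocyte markers. This held for only 1 of the 5 dendritic cell markers and 1 of the 6 neutrophil markers tested, against 7.90% of all genes. The 5 markers of all leukocytes summed to 232 to 751 CPM in EA-BN-H libraries, 342 to 590 CPM in COPD libraries and 95.7 to 149 CPM in NC libraries, and 1 of the 5 rose in exposed against NC, where 2.79% of all genes were called higher. The 7 markers of macrophages and monocytes summed to 230 to 804 CPM in EA-BN-H libraries, 308 to 675 CPM in COPD libraries and 84.9 to 132 CPM in NC libraries, and 5 of the 7 rose in exposed against NC. In single groups against NC 2 were called in EA-BN-H and 5 in COPD, where 1.17% and 1.61% of all genes were called higher. The median log2 fold changes of the 7 were 2.74 and 3.10, and none was called in EA-BN-H against COPD. EA-BN-H replicate 2 had the highest sum of both lists, as it had for most class I genes. The 5 dendritic cell markers summed to 75.4 to 156 CPM in EA-BN-H, 119 to 157 CPM in COPD and 30.2 to 72.6 CPM in NC. Their median log2 fold change in exposed against NC was 0.20, with 1 call, Itgax, which was higher. No marker was called among the 6 tested of neutrophils (26.6 to 263 CPM in EA-BN-H, 61.5 to 101 CPM in COPD and 8.82 to 19.98 CPM in NC), where Ly6g had 0 counts in all libraries but EA-BN-H replicate 2. The 6 log2 fold changes of neutrophil markers in exposed against NC were all above 0, with a median of 2.42. The 12 markers of T and NK cells summed to 22.2 to 114 CPM in EA-BN-H, 38.3 to 89.7 CPM in COPD and 22.3 to 24.8 CPM in NC, with 0 calls. All 12 were above 0 in exposed against NC, with a median of 1.65. The lists for alveolar macrophages (5 tested), B cells (4), erythroid cells (5) and lung identity (10) gave 0 calls in exposed against NC. Their median log2 fold changes were 0.99, -0.34, -0.21 and 0.04 in that order. Alveolar macrophage markers summed to 47.4 to 124 CPM in EA-BN-H, 75.5 to 143 CPM in COPD and 35.0 to 75.6 CPM in NC, with Fabp1 at 0 in 5 libraries. B cell markers summed to 8.24 to 26.4 CPM in EA-BN-H, 17.1 to 33.5 CPM in COPD and 11.7 to 42.3 CPM in NC, and erythroid markers to 206 to 336 CPM in EA-BN-H, 140 to 252 CPM in COPD and 96.8 to 370 CPM in NC. Lung identity markers summed to 7759 to 12199 CPM in EA-BN-H, 7102 to 12605 CPM in COPD and 11381 to 20589 CPM in NC. The part of these cells in the class I values was not tested.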

How the data were processed

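For 9 libraries the table lists 129299 RefSeq transcripts with 3 values per library. As deposited by the authors, the estimated counts are whole numbers without normalization, and the deposited FPKM and TPM are scaled for depth and transcript length. Tools named in the submitters' notes are Trimmomatic 0.38, HISAT2 2.1.0, StringTie 2.1.3b, DESeq2 and mm10, and the paper names HTSeq. The sample labels give a stranded total RNA kit, the paper a TruSeq RNA kit, and whether counting used strand is not given in the sources used here, so a gene and an antisense partner cannot be told apart.

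Counts were summed by Gene ID. With filterByExpr, 18716 genes remained, all 10 class I genes among them. After TMM scaling, all 9 libraries entered 1 fit of edgeR's quasi-likelihood test, with Benjamini-Hochberg adjustment over all genes and calls at an adjusted p under 0.05. The standard error is the log2 fold change over the square root of F. CPM are TMM-scaled, with SD after ±. Software was edgeR 4.0.16, DESeq2 1.42.0 and limma 3.58.1 in R 4.3.3, and the fit was tested on simulated data. For 3 against 3 an exact permutation p of 0.10 is the smallest possible, and no permutation test was run, for the pooled comparison either. The 10 genes and the gene lists were chosen with earlier results of these data known, so no test over a list is given, and their counts and medians are descriptions beside the share called and the median over all genes. From each list up to 4 genes with the smallest p in exposed against NC are named, and 6 genes by likeness with a mean of at least 50 counts. One gene that this rule names is not reported here. Of 175 list entries 7 had no row in the table. Alternatives were RLE factors, library totals, nuclear protein-coding genes alone, no filter, at least 10 counts in every library, DESeq2 with and without shrunken fold changes, a replicate block, only the groups compared, limma on log2 FPKM and log2 TPM with 0.1 added, summed heavy chains, transcripts, an unadjusted p under 0.05 with a log2 fold change of at least 1, and leaving out each library. The study gives those last thresholds for shrunken DESeq2 values, without saying whether p was adjusted, so counts under them here are not the study's. Promoter sequences are from RefSeq on GRCm38.p6.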

Additional observations from a re-analysis of the deposited data

How the results depend on the processing

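The direction of the 9 genes that rose in exposed against NC held in every setting run for the 3 comparisons with NC, but the number of calls did not. The labels do not say that replicate numbers pair libraries, the residuals of same-numbered libraries correlated at -0.24 to 0.13, and 1 of 9 libraries correlated best with its own number. With a replicate block 0 of the 10 genes, and 0 genes of the whole table, were called in COPD against NC, EA-BN-H against NC or exposed against NC, and in EA-BN-H against COPD the block put Tap1 at -0.19 and Tapbpl at -0.22. Leaving out 1 library at a time gave 0 to 9 calls in each of these 3 comparisons. In EA-BN-H against NC library totals, only the groups compared, FPKM and TPM gave 0 calls among the 10 genes, beside 98, 0, 10 and 11 in the whole table, and in exposed against NC TPM gave 4, beside 239. DESeq2 gave 9 in each comparison with NC, beside 1303 to 1936 in the whole table, and 0 in EA-BN-H against COPD. On TPM the median of the 10 genes was 1.42 in EA-BN-H against NC and -1.01 in EA-BN-H against COPD, against -0.59 and -0.70 over all genes. In the edgeR fit with 1 library left out, the median of the 10 genes in EA-BN-H against COPD ran from -0.75 to 0.17. With the leading transcripts of H2-K1, H2-D1 and H2-T23 in place of genes, none was called against NC (edgeR adjusted p 0.428 to 0.753), and of 48381 transcripts 0 were called in COPD against NC and 1 each in EA-BN-H against NC and exposed against NC. The transcript called in both was the Nlrc5 model with 0 counts in all NC libraries (edgeR adjusted p = 0.0492 and 0.0473). Since the assignment of reads to the Nlrc5 models was unstable, nothing is drawn from this call.

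In EA-BN-H against COPD the sign of small differences changed. Tap1 was at -0.27 with library totals, -0.60 on FPKM and -0.93 on TPM, Tap2 at -0.15, -0.31 and -0.64, Tapbpl at -0.22, -0.68 and -0.99, and Nlrc5 at -0.12, -0.40 and -0.73. The medians over all genes in these 3 settings were -0.41, -0.42 and -0.70, so the values of single genes are to be read against them. With 1 library left out, B2m ran from -1.004 to 0.26, Erap1 from -0.96 to 0.086, H2-T23 from -0.93 to 0.052, Nlrc5 from -0.43 to 0.50, Tap1 from -0.73 to 0.30, Tap2 from -0.23 to 0.37, Tapbp from -0.69 to 0.083 and Tapbpl from -0.86 to 0.39. In the same fits H2-K1 ran from -0.76 to -0.24 and H2-D1 from -0.72 to -0.16. Erap1 in EA-BN-H against NC was at -0.24 on FPKM and -0.52 on TPM, where the medians over all genes were -0.35 and -0.59. With 1 library left out it ran from -0.41 to 0.65. The cause was not tested. The gene with the fewest counts, Tapbpl, held 170 to 1806 counts per library, and the part of counting error in these differences was not tested.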
